A study of Drosophila melanogaster with 6 samples.

Results

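The small nuclear RNAs (snRNAs) and the small Cajal body RNAs (scaRNAs) that guide their modification were examined in total RNA from Drosophila melanogaster ovaries with and without Gcna. Members are the rows of the deposited table whose name begins with snRNA: or scaRNA:, 42 of 13216 rows, of which 28 are snRNAs and 14 are scaRNAs. Wild type was the stock wBerlin (3 libraries). The other group, called GCNA null (3 libraries), was homozygous for a CRISPR knock-in allele that knocks out Gcna, a germ cell nuclear protein gene, and came from 10 generations of outcrossing to wBerlin. In both groups females were 1 to 3 days old, had been fed wet yeast for 24 hours and were kept at 25 °C. The effect of any founder chromosome segment left after outcrossing and that of Gcna cannot be told apart.

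Spliceosomal snRNAs pair with the messenger RNA precursor and with each other to cut out introns. U1 binds the 5′ splice site, U2 binds the branch point, and U4, U6 and U5 join as one particle that forms the catalytic centre. A minor spliceosome uses U11, U12, U4atac and U6atac for a rare class of introns and shares U5 with the major one. The names snRNA: also cover U7, which processes the 3′ ends of histone messages, and 7SK, which holds the elongation factor P-TEFb inactive. Most snRNAs receive a ring of Sm proteins in the cytoplasm and return to Cajal bodies, where scaRNAs of the C/D kind direct 2′-O-methylation and those of the H/ACA kind direct pseudouridylation. An ovary stores such RNAs for the embryo, since nurse cells supply the egg before zygotic transcription begins.

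The values are reads per row divided by 1 size factor per library, and 1 read was worth about 1 normalized count (0.789 to 1.15). Reads per library were 38401723 to 55758180, and the snRNA and scaRNA rows took 0.263% to 0.313% of them. The targeted gene, listed as CG14814, had 18292 to 20676 normalized counts in the wild type and 428 to 520 in the GCNA null libraries. Between GCNA null replicate 1 and replicate 2 the reads varied nearly as counting alone would make them (chi-square per degree of freedom 1.62 over all rows, against 25.2 to 93.6 for the other pairs within a group). Their mean was therefore used as 1 sample, so that n is 3 for wild type and 2 for GCNA null. No label ties the libraries of a group to different batches of flies, and p-values may thus reflect technical spread alone. Germline markers (vas, osk, nos, bcd, grk, otu) summed to 162655 to 188018 normalized counts in wild type and 153733 to 157065 in GCNA null libraries, which do not overlap. Of these 6 genes, 5 had negative log2 differences and none passed with limma. Follicle cell markers summed to 276096 to 337863 and 199955 to 326157, which overlap, while the testis markers found in the table summed to 0 to 15.0. The sum of 2 hemocyte markers was 138 to 255 in wild type and 292 to 551 in GCNA null libraries, and neither marker passed the test. In whole ovaries, fewer cells of a type and less RNA per cell cannot be told apart.

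Of the 42 rows, 32 had at least 10 normalized counts in at least 3 libraries and were tested with all 10132 such rows of the table (limma on log2 of the normalized count plus 1, two-sided, Benjamini-Hochberg adjusted over all rows, called below 0.05). The main change was in U1, the snRNA of the 5′ splice site: its 3 copies at 95C rose in GCNA null ovaries. A pair of U2 copies at 34AB fell, while a neighbouring U2 copy was measured at higher levels. The U2 sum, which adds both rows of the pair, was nearly level. Thus 5 of 32 tested rows (15.6%) were called, 3 higher and 2 lower, against 6.37% of all tested rows (4.25% higher and 2.11% lower). The 5 rows are fewer measurements than they appear, since U1:95Ca and U1:95Cb, and U2:34ABb and U2:34ABc, hold nearly the same reads. The values of the groups did not overlap in 13 of the 32 rows (40.6%), against 38.9% of all tested rows. None of the 8 tested scaRNAs passed with limma or with the count tests of edgeR and DESeq2. With limma 1 of the 8 had an unadjusted p under 0.05, against 2341 of all 10132 tested rows. edgeR called 6.44% of all rows (4.52% higher and 1.92% lower) and DESeq2 12.8% (7.45% and 5.35%), while limma with 6 separate samples called 16.6% (9.23% and 7.39%).

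**Figure D1:**
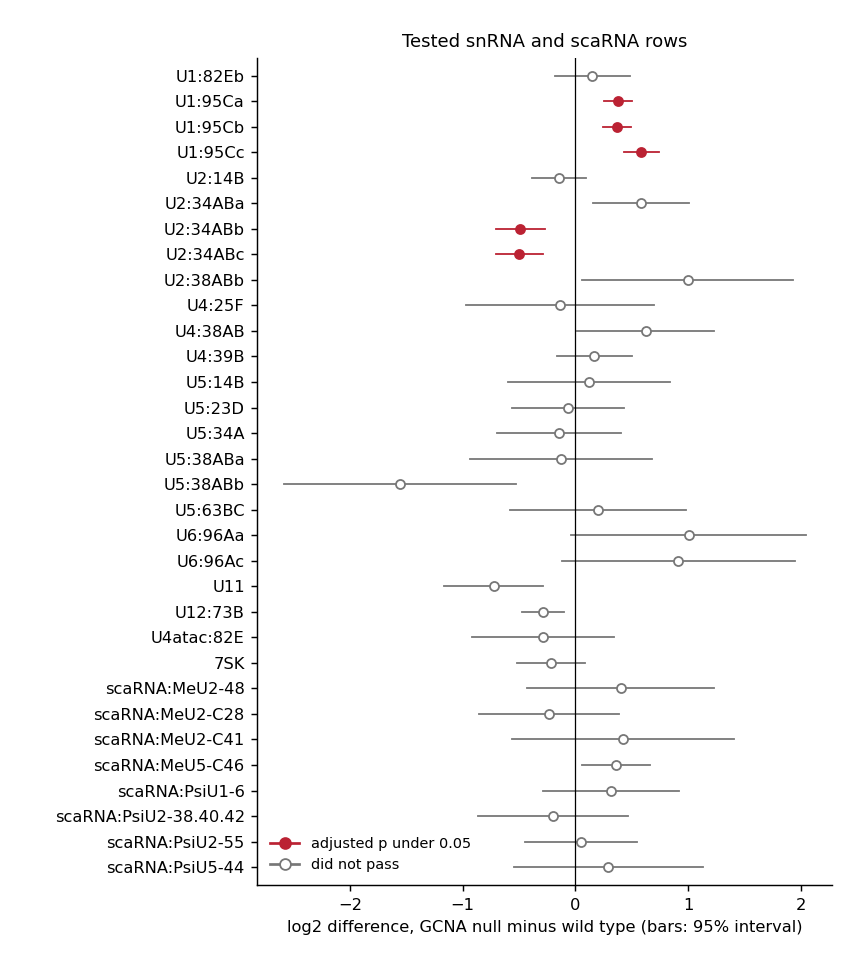
The log2 difference (GCNA null minus wild type, x axis) of each of the 32 tested rows, with its 95% interval from limma on 5 samples. The 3 U1 rows at 95C lie to the right of 0 and the U2 rows 34ABb and 34ABc to the left (filled red points), and the other 27 rows did not pass the test.

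Per kilobase of annotated RNA and summed over copies, 7SK stood at 173110 ± 16211 normalized counts in wild-type ovaries (SD, n = 3). The U2 sum followed at 153407 ± 10829. It adds U2:34ABb (40695) and U2:34ABc (40989), which hold nearly the same reads, so it overstates U2 beside 7SK. U1 stood at 72001 ± 1878, U11 at 22574 ± 4903 and U12 at 13789 ± 729. U4 (10181 ± 1471) and U5 (5525 ± 1594) were lower on this scale, and U4atac was at 432 ± 98.1. U6, which pairs with U4 in the cell, was read at only 161 ± 54.1 per kilobase. Sums count a read more than once where identical copies share it. The annotation also lists U1:21D, U6:96Ab and 7SKb, to which no row of the values was matched. How well the libraries recover each RNA was not tested, so these levels describe reads and not molecules.

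**Figure D2:**
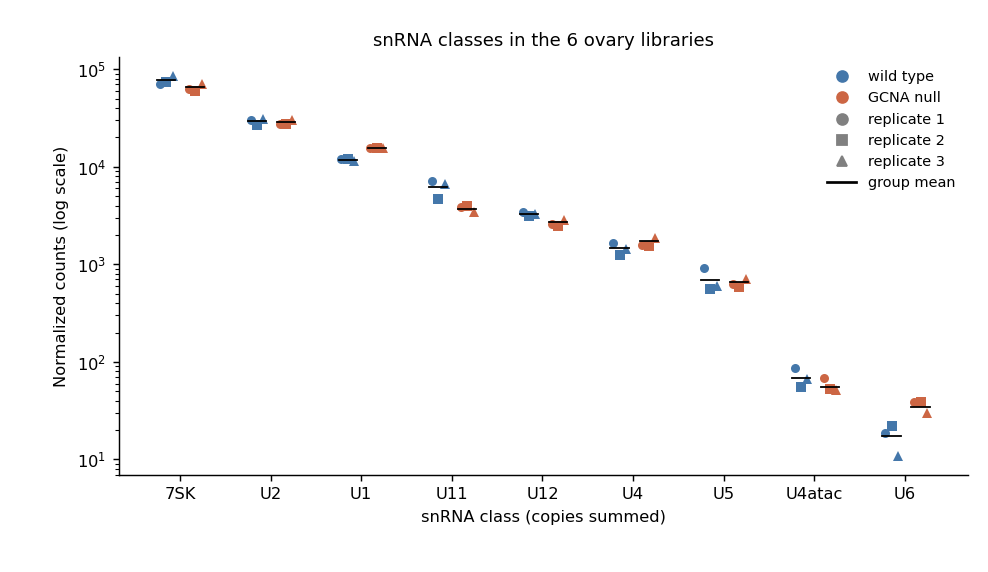
Normalized counts of 9 snRNA classes (copies summed, log scale) in the 3 wild type and 3 GCNA null libraries, with group means as black lines (the GCNA null mean counts replicates 1 and 2 as 1 sample). U1 lies higher in every GCNA null library than in any wild type library, U11, U12 and 7SK lie lower, and U2 and U5 overlap.

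U1 was measured from 4 rows. U1:95Ca (chr3R:23859467-23859630, dm6, minus strand) had 4908, 4880 and 4674 normalized counts in wild type, in the order of the replicate numbers, and 6328, 6182 and 6270 in GCNA null. Every GCNA null library lay above every wild type library, and the groups were separated by far more than their spread. The log2 difference was 0.38 (SE 0.05, limma adjusted p = 0.012), and U1:95Cb (chr3R:23827870-23828033, plus strand) gave the same within error (0.37, SE 0.05, limma adjusted p = 0.012). The reads of these rows were equal in 2 libraries and differed by at most 2.11% in the others, so they amount to about 1 measurement.

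U1:95Cc (chr3R:23826334-23826497, plus strand), 1372 bp from U1:95Cb, had 1895, 1784 and 1734 normalized counts in wild type and 2666, 2692 and 2731 in GCNA null libraries. The groups did not overlap, and the row rose from a mean of 1804 ± 82.2 (SD, n = 3) to one of 2705 ± 36.6 (SD, n = 2), which is 0.58 on the log2 scale (SE 0.06, limma adjusted p = 0.0054). In RefSeq the synonyms of 95Ca, 95Cb and 82Eb carry the name U1a and those of 95Cc the name U1c. The within-library ratio of U1:95Cc to U1:95Ca was 0.386, 0.365 and 0.371 in wild type and 0.421, 0.435 and 0.436 in GCNA null libraries. This ratio was chosen after the values were seen and has no test. U1:82Eb (chr3R:4947933-4948096), the scarce copy, had 360, 460 and 372 normalized counts in wild type and 405, 460 and 444 in GCNA null libraries, which overlap (log2 difference 0.15, SE 0.14, limma adjusted p = 0.56).

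Summed over its 4 rows, U1 had 11968, 12004 and 11453 normalized counts in wild type and 15622, 15460 and 15647 in GCNA null libraries. The U1 sum was 1.32-fold higher (log2 difference 0.40, 95% interval 0.27 to 0.54, limma adjusted p = 0.013). It was the only snRNA class sum of 9 tested to pass, in a fit where 6.30% of all rows were called. Without wild type replicate 3 the U1 sum kept its size but missed the threshold (0.38, adjusted p = 0.055), as it did without GCNA null replicates 1 and 2 (0.41, adjusted p = 0.088). Other structured RNAs differed in direction. All snoRNA rows together had 116616 to 119734 normalized counts in wild type and 127917 to 131777 in GCNA null libraries, although the median log2 difference of the 215 tested snoRNA rows was -0.10. RNase P RNA had 18852 to 21270 and 23015 to 23795 (log2 difference 0.24, limma adjusted p = 0.13). RNase MRP RNA (-0.25) and the 7SL RNA rows (-0.12 and -0.09) had negative log2 differences, overlapped between groups and did not pass either. Their part in the U1 result was not tested.

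U1:95Cb and U1:95Cc lie on the sense strand within an intron of CG34355, a protein-coding gene. CG34355 averaged 50.3 ± 2.87 normalized counts in wild type and 90.8 ± 6.04 in GCNA null libraries. It was higher in every GCNA null library without passing the test (log2 difference 0.84, limma adjusted p = 0.068). U1:95Ca lies in no other annotated gene.

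U2, the branch point snRNA, was spread over 6 rows. U2:34ABa (chr2L:13211925-13212116, minus strand) had 6903, 7385 and 10530 normalized counts in wild type and 11706, 11539 and 12733 in GCNA null libraries. The groups did not overlap, but wild type replicate 3 lay close to the GCNA null values (log2 difference 0.58, SE 0.18, limma adjusted p = 0.12). Without that library the row passed, at 0.77 (adjusted p = 0.015), as it did with DESeq2 (0.016) and with 6 separate samples (0.044). It did not pass without wild type replicate 1 (0.46, adjusted p = 0.23), without wild type replicate 2 (0.51, adjusted p = 0.24) or with edgeR (adjusted p = 0.13). U2:34ABb (chr2L:13215839-13216030, plus strand) had 8655, 7257 and 7528 normalized counts in wild type and 5266, 5289 and 5836 in GCNA null libraries. All 3 GCNA null libraries lay below all wild type libraries, and the row fell from a mean of 7813 ± 742 to one of 5557 ± 395, which is -0.49 on the log2 scale (SE 0.09, limma adjusted p = 0.031). U2:34ABc (chr2L:13244370-13244561, minus strand) had the same reads as U2:34ABb in 5 of 6 libraries and gave -0.50 (adjusted p = 0.025). Neither row passed without wild type replicate 2 (adjusted p = 0.053 for both), without wild type replicate 3 (0.088 and 0.069) or without GCNA null replicates 1 and 2 (0.19 and 0.17). U2:34ABb also missed without wild type replicate 1 (adjusted p = 0.056) and without GCNA null replicate 3 (0.053).

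Within U2, the share of U2:34ABa was 22.9%, 27.2% and 33.8% in wild type and 42.6%, 42.3% and 42.6% in GCNA null libraries. The share of U2:34ABb went the other way, from 28.7%, 26.8% and 24.2% to 19.2%, 19.4% and 19.5%. Both shares were nearly constant across the GCNA null libraries and varied among the wild type libraries. The class sum adds U2:34ABb and U2:34ABc, which hold nearly the same reads, so these are shares of summed rows and not of U2 reads. U2:14B (chrX:16254672-16254863) had 5613, 4751 and 5368 normalized counts in wild type and 4962, 3746 and 5154 in GCNA null libraries, which overlap (log2 difference -0.14, adjusted p = 0.44). Over all 6 rows U2 had 30122, 27121 and 31115 normalized counts in wild type and 27478, 27255 and 29895 in GCNA null libraries. The sums overlap, and the log2 difference was -0.04 with a 95% interval of -0.26 to 0.18 (limma adjusted p = 0.83). As U2:34ABb and U2:34ABc both enter this sum, their lower reads weigh more in it than the higher reads of U2:34ABa. A sum that counts the pair once was not fitted, so the sign of the difference is uncertain.

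The scarce U2 copies at 38AB were uneven between the GCNA null libraries. U2:38ABb had 121 reads in GCNA null replicate 1 and 1603 in replicate 2, the pair of libraries that are otherwise nearly alike, a 9.09-fold gap in normalized counts. The other libraries held 161 to 336 normalized counts of it. Its log2 difference was 1.00 (SE 0.39, limma adjusted p = 0.19), and DESeq2 called it higher (adjusted p = 0.037). U2:38ABa was at 0 reads in the wild type and in GCNA null replicate 3, and at 121 and 160 in the other two. Over the snRNA and scaRNA rows this pair of libraries gave a chi-square per degree of freedom of 30.4, and 6.47 without U2:38ABb. U2:14B, U4:38AB and U5:34A had ratios of 0.755, 0.698 and 0.703 of replicate 2 to replicate 1, whereas those of U1:95Ca, U2:34ABa and 7SK were 0.977, 0.986 and 0.957. The sources used here name no read counter and no rule for reads that match several copies, so single copies of U1, U2, U4, U5 and U6 are uncertain.

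**Figure D3:**
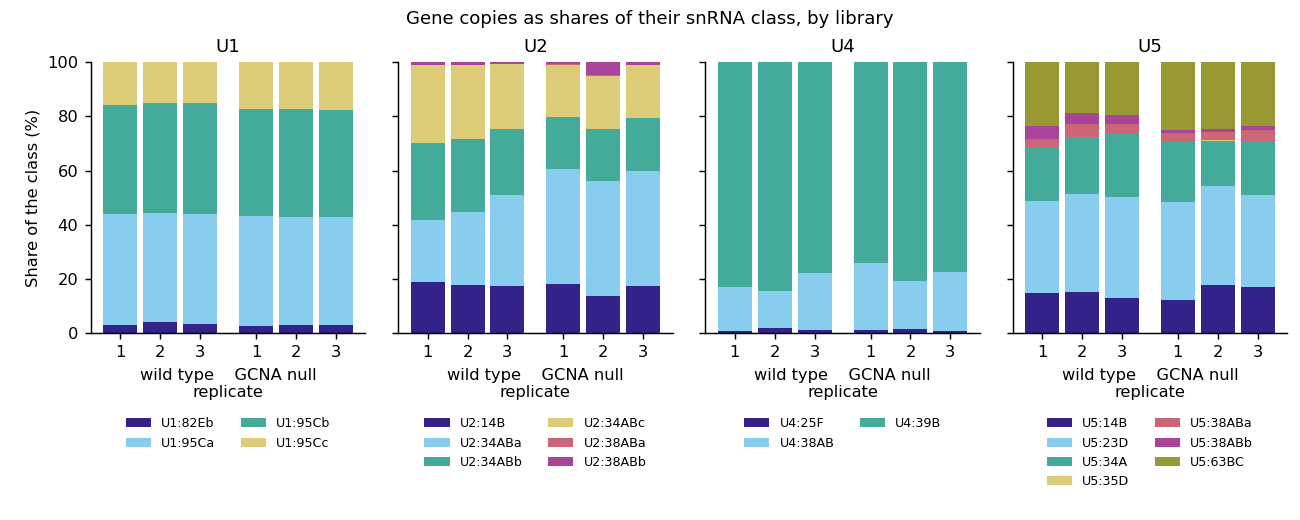
Each gene copy as a percent of the normalized counts of its snRNA class in every library. Rows with nearly the same reads, such as U2:34ABb and U2:34ABc, are each counted in the class. The U2 panel shows U2:34ABa at 22.9% to 33.8% in wild type and 42.3% to 42.6% in GCNA null libraries, and the U1 panel shows U1:95Cc at 14.9% to 15.8% and 17.1% to 17.5%.

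U4, U5 and U6 form the tri-snRNP, and no sum of theirs passed. U4 had 1667, 1248 and 1450 normalized counts in wild type and 1596, 1539 and 1874 in GCNA null libraries. The groups overlapped (log2 difference 0.25, 95% interval -0.09 to 0.58, limma adjusted p = 0.34). U4:39B, in an intron of Atg18b, made up 74.3% to 84.4% of U4, and U4:38AB had 269, 172 and 301 normalized counts in wild type and 397, 277 and 410 in GCNA null libraries (log2 difference 0.62, adjusted p = 0.21). The third copy, U4:25F, had 13.8 to 22.2 normalized counts over all libraries.

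U5 pairs with exon ends at the catalytic centre and serves both spliceosomes. Its sum was 915, 553 and 599 normalized counts in wild type and 627, 586 and 705 in GCNA null libraries, so the groups overlapped and wild type replicate 1 was the highest library (log2 difference -0.04, 95% interval -0.57 to 0.49, limma adjusted p = 0.93). U5:23D was the most abundant U5 copy in every library, with at most 37.6% of the class, and the next copies, whose order varied between libraries, were the one at chr3L:3090801-3090923, U5:34A and U5:14B, whose log2 differences of 0.20, -0.15 and 0.12 did not pass. RefSeq synonyms mark 14B, 38ABa and 38ABb as U5 variants. The variant U5:38ABb (chr2L:19816414-19816540) had 43.0, 23.3 and 21.8 normalized counts in wild type and 6.90, 7.10 and 11.1 in GCNA null libraries. It was lower in every GCNA null library and took 3.64% to 4.70% of U5 in wild type against 1.10% to 1.57%. Its log2 difference was the largest in size among the tested members, -1.56 (SE 0.43), but at 6 to 46 reads per library it did not pass with limma (adjusted p = 0.093), edgeR (0.087) or DESeq2 (0.069), and it passed with 6 separate samples (0.024). U5:38ABa, 4339 bp away in the same gene, sick, overlapped between groups (log2 difference -0.13, adjusted p = 0.85), and sick itself had 580 to 645 normalized counts in wild type and 703 to 913 in GCNA null libraries (log2 difference 0.36, adjusted p = 0.17). U5:35D had at most 2 reads in any library.

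U6 had few reads. Its rows U6:96Aa and U6:96Ac, 1020 bp apart, held equal reads in 3 libraries and differed by at most 12.5% in the others. They summed to 18.7, 22.2 and 10.9 normalized counts in wild type and 39.1, 38.7 and 30.2 in GCNA null libraries. Every GCNA null library was higher, with a log2 difference of 1.00 whose 95% interval reached from 0.07 to 1.94, and the sum did not pass over all rows (limma adjusted p = 0.19).

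The minor spliceosome RNAs U11 and U12, which recognise the 5′ splice site and the branch point of rare introns, were measured at lower levels in GCNA null ovaries without passing the test. U11 (chr3L:3893056-3893330, minus strand) had 7210, 4675 and 6739 normalized counts in wild type and 3851, 3980 and 3474 in GCNA null libraries. The groups did not overlap, but wild type replicate 2 lay apart from the other two (log2 difference -0.73, SE 0.18, limma adjusted p = 0.075). Without that library the difference was -0.92 and passed (adjusted p = 0.011). U11 did not pass without wild type replicate 1 (-0.61, adjusted p = 0.16) or without wild type replicate 3 (-0.65, adjusted p = 0.21). U12 (chr3L:16653769-16654006, plus strand) had 3471, 3130 and 3244 normalized counts in wild type and 2589, 2473 and 2865 in GCNA null libraries. It too was lower in every GCNA null library (log2 difference -0.28, SE 0.08, adjusted p = 0.092). DESeq2 on the recovered reads called both as lower (adjusted p = 0.00075 for U11 and 0.024 for U12), in a fit that called 12.8% of all rows, as did limma on 6 separate samples, which called 16.6%. Both genes lie antisense within introns of other genes. Fie, around U11, had a log2 difference of 0.16 (limma adjusted p = 0.88), and Baldspot, around U12, had a log2 difference of -0.13 (adjusted p = 0.22).

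U4atac, within an intron of cno, had 86.0, 55.0 and 66.5 normalized counts in wild type and 67.9, 52.9 and 51.3 in GCNA null libraries, which overlap (log2 difference -0.28, limma adjusted p = 0.56). U6atac was too scarce for the test. It had 4 reads in the wild type and 14 in the GCNA null libraries together, a read ratio of 3.28 (exact 95% interval 1.03 to 13.7, counting error only).

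7SK, the most abundant member, is a single row on chromosome 3R at 7474553 to 7474996. It had 71040, 74633 and 84909 normalized counts in wild type and 63203, 60509 and 70182 in GCNA null libraries. The highest GCNA null library lay just below the lowest wild type library, and the difference of -0.22 (SE 0.13) did not pass (limma adjusted p = 0.35). U7 had 0, 1 and 1 reads in wild type and 3, 6 and 9 in GCNA null libraries. Its read ratio of 8.43 (exact 95% interval 2.02 to 74.9, counting error only) rests on 2 wild type reads. In a fit without the filter on low values its adjusted p was 0.10. Its annotated length of 71 bp is the shortest among the snRNA rows.

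The scaRNAs were dominated by 1 RNA. scaRNA:MeU5-C46, known as U85, combines C/D and H/ACA parts and guides modification of U5. It had 2482, 3173 and 2475 normalized counts in wild type and 3806, 3561 and 3235 in GCNA null libraries. Every GCNA null library was higher, wild type replicate 2 came close to them, and the log2 difference of 0.36 (SE 0.13) did not pass (limma adjusted p = 0.16). Without wild type replicate 2 it was 0.48 and passed (adjusted p = 0.049). The row passed under no other of the 18 alternatives, and stood at 0.30 without wild type replicate 1 (adjusted p = 0.31). All 14 scaRNAs together had 2922, 3504 and 2839 normalized counts in wild type and 4178, 3984 and 3655 in GCNA null libraries, but without MeU5-C46 the sums of 331 to 440 and 373 to 424 overlapped.

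Next in abundance were PsiU1-6, a guide for U1, and PsiU2-55 and PsiU2-38.40.42, guides for U2. PsiU1-6 had 165, 104 and 107 normalized counts in wild type and 160, 175 and 138 in GCNA null libraries (log2 difference 0.31, adjusted p = 0.50). PsiU2-55 had 104, 81.4 and 88.3 against 74.8, 96.3 and 104 (log2 difference 0.05, adjusted p = 0.91). PsiU2-38.40.42 had 75.7, 55.0 and 67.6 against 41.4, 50.5 and 70.5 (log2 difference -0.20, adjusted p = 0.70). All of these overlap between groups. MeU2-C28 had 30.7 to 34.9 normalized counts in wild type and 21.9 to 30.8 in GCNA null libraries (log2 difference -0.23, adjusted p = 0.64). The other 3 tested scaRNAs, MeU2-48, MeU2-C41 and PsiU5-44, had wild type means of 14.5 to 15.2 and log2 differences of 0.40, 0.42 and 0.29. The 6 untested scaRNAs (MeU2-G25, MeU4-A65, MeU5-G38, MeU5-U42, PsiU6-40 and the PsiU2 guide within Gp210) had 3 to 19 reads in the wild type libraries together, and their read ratios could not be told from 1 at this depth.

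All 14 scaRNAs lie on the sense strand in an intron of a protein-coding gene, from which such RNAs are released after splicing. None of the hosts passed the test with limma, edgeR or DESeq2, and their log2 differences ranged from -0.19 to 0.16. None had an unadjusted p under 0.05 with limma, against 2341 of all 10132 tested rows. Those of the 8 tested scaRNAs ranged from -0.23 to 0.42, and 4 of the 8 had the same sign as their host. CG1142, the host of MeU5-C46, had a log2 difference of 0.07 (adjusted p = 0.55), and dmt, the host of PsiU1-6, of 0.08. Prp8, which encodes the central protein of the U5 particle, hosts PsiU2-55 and had a log2 difference of -0.11 (adjusted p = 0.38). tra2, a splicing regulator and host of PsiU5-44, stood at -0.01.

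**Figure D4:**
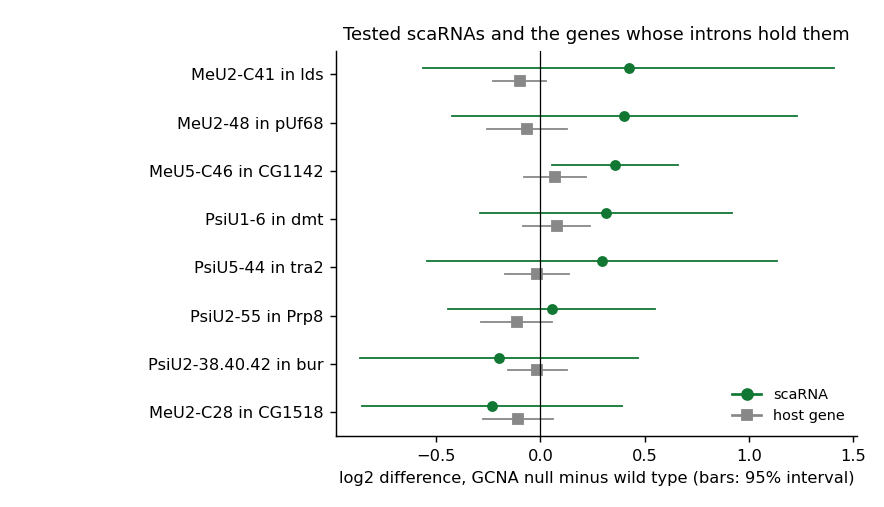
The log2 difference (x axis) of each of the 8 tested scaRNAs (circles) and of the gene whose intron holds it (squares), with 95% intervals from limma on 5 samples. The hosts lie between -0.11 and 0.08, and the interval of MeU5-C46 is the only scaRNA interval that leaves out 0 before adjustment.

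Messenger RNAs of the proteins that build, modify and work with these RNAs changed in 2 of 109 genes with limma, both lower (1.83%, against 6.37% of all rows called). The median log2 difference of the 109 was -0.04, against -0.00045 over all rows. Of the 109, 73 were negative and 36 positive, while 5057 of all 10132 tested rows were positive. SmB, of the Sm ring shared by most snRNAs, had 2438, 2258 and 2730 normalized counts in wild type and 1823, 1852 and 1798 in GCNA null libraries. It fell in every GCNA null library (log2 difference -0.44, SE 0.09, limma adjusted p = 0.038). The other 6 Sm genes did not pass with limma, while DESeq2 also called SmG lower (adjusted p = 0.046). CG7637 (Nop10), a core protein of H/ACA particles, had 3262, 3397 and 3059 normalized counts in wild type and 2579, 2378 and 2409 in GCNA null libraries, which do not overlap. It fell by 0.41 on the log2 scale (SE 0.06, limma adjusted p = 0.019), the 1 gene called with limma among 13 Cajal body and guide particle genes. Without GCNA null replicate 3, without wild type replicate 1, or without GCNA null replicates 1 and 2, neither gene passed. Without wild type replicate 2 CG7637 missed (adjusted p = 0.051), and without replicate 3 SmB did (adjusted p = 0.082).

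With limma on 5 samples and with edgeR, no gene was called among the 18 of U1 and U2, the 14 of U4/U6 and U5, the 14 of SMN assembly and transport or the 20 of snRNA transcription and Integrator, the complex that cuts the 3′ end of snRNA precursors. DESeq2 called hoip and 1 other gene of the U4/U6 and U5 list lower (adjusted p = 0.014 and 0.035), rig lower (0.024) and IntS3 higher (0.044). Limma with 6 separate samples called the same 4 genes and snRNP-U1-70K, which was lower (0.036). The list medians were -0.05, -0.05, -0.07 and -0.01. Chosen after the values were seen, the U1 protein genes snRNP-U1-70K, snRNP-U1-C and snf had log2 differences of -0.21, -0.09 and -0.12 (limma adjusted p = 0.14, 0.45 and 0.46). The most abundant genes of these lists did not pass with limma on 5 samples. CG13900 (Sf3b3) and U2af50, of U2 recruitment, stood at -0.14 and -0.12, and Prp8 and l(3)72Ab (Brr2) both at -0.11. The transport receptors Fs(2)Ket and emb stood at -0.06 and -0.11, and IntS3 and IntS6 at 0.21 and -0.01.

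The remaining lists held no call with limma on 5 samples or with edgeR. The 7 Lsm genes, whose ring sits on U6, had a median of -0.01, with LSm7 at 0.04 and LSm3 at -0.01. Among 3 U6 maturation genes, La, which binds new U6, stood at -0.08, and CG7544 (Mettl16), a U6 methyltransferase, at 0.28 (limma adjusted p = 0.087, and 0.019 with DESeq2, which called it higher). The 5 genes of 7SK and P-TEFb were all slightly negative (median -0.06), with bin3 at -0.01 and CycT at -0.15. The 9 partners of U7 in histone message processing had a median of -0.02, and mute and mxc, of the histone locus body, stood at -0.03 and -0.0026.

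**Figure D5:**
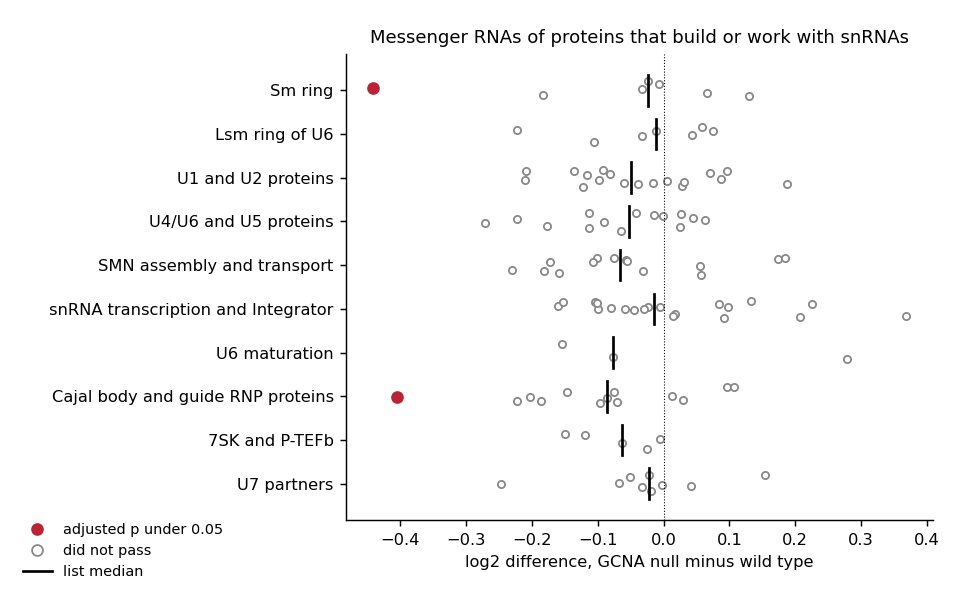
The log2 difference (x axis) of each partner gene by list, with the list median as a black line (hoip belongs to 2 lists). SmB at -0.44 and CG7637 at -0.41 are the 2 genes that passed (filled red points), and no gene passed as higher with limma on 5 samples.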

How the data were processed

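Total RNA of 6 ovary libraries was analysed. Per the labels' protocols, RNA from 18 nt was kept, treated with DNase, depleted of ribosomal RNA and made into stranded libraries for the Illumina HiSeq 2500. The tools CASAVA 1.8.2, STAR 2.5 and DESeq2 and the build dm6 are named, per the submitters' processing notes. For annotation and read counter the sources used here give no name. The deposited signal values are reads divided by 1 size factor per library by the authors, as the values show: all were whole multiples of 1 step (within 1e-06), so reads were recovered for 100% of values.

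The main test was limma 3.58.1 (R 4.3.3), with a trend of variance on mean level, on log2(normalized count + 1) over rows with at least 10 in at least 3 libraries, which understates changes of scarce RNAs. The test was checked on simulated independent libraries with 1 dispersion for all rows and changes of at least 2-fold. That check did not cover nearly alike libraries or smaller changes. For class sums, snRNA rows were replaced by 1 summed row per class before the fit. edgeR 4.0.16 and DESeq2 1.42.0 on the recovered reads were alternatives, as were other pseudocounts, filters and scalings and the omission of each library. Exact intervals cover counting error only. Positions come from the Ensembl BDGP6 annotation (dm6 coordinates), matched by symbol or RefSeq synonym. Named rows were every call, every class sum, the most abundant rows of each class and, per list of partner genes, the calls or else the 2 most abundant. Members and lists were chosen with earlier results of these data known.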

Additional observations from a re-analysis of the deposited data

How the results depend on the processing

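All values below are numbers of called members, classes or partner genes, or log2 differences. With other pseudocounts and filters, TMM or quantile scaling, robust empirical Bayes and edgeR, the counts of 3 rows higher and 2 lower, 1 class higher and 0 lower, and 0 partner genes higher and 2 lower did not change. Over all rows, these fits made 574 to 719 calls, against 645 in the main fit. With 6 separate samples, a fit that called 16.6% of all rows, 4 member rows were higher and 5 lower. In that fit 2 classes and 7 partner genes were lower and 2 partner genes higher. In a fit that called 12.8% of all rows, DESeq2 gave 5 member rows higher and 4 lower. It gave 2 classes lower, and 2 partner genes higher and 6 lower. Of the 5 higher rows 1 was U2:38ABb (1.18, DESeq2 adjusted p = 0.037), which was uneven between GCNA null replicates 1 and 2. Correlations of deviations between libraries of the same replicate number were -0.18, 0.07 and -0.09. As GCNA null replicates 1 and 2 are nearly alike, these values cannot tell whether the numbers pair the samples. With 6 separate samples and a replicate block, 1117 of all 10132 rows were called. Of the members 5 rows were higher, and 3 rows and 1 class were lower. In the same fit 2 partner genes were higher and 3 lower.

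Leaving out 1 wild type library, or GCNA null replicate 1 or 2, gave 3 to 4 rows higher and 0 to 2 lower. In these fits 0 to 1 classes were higher and 0 to 1 lower, and 0 partner genes were higher and 0 to 2 lower. Of all 10132 rows, 368, 355 and 289 were called without wild type replicates 1, 2 and 3 in turn, against 645 in the main fit. Without GCNA null replicate 1 or 2 alone, 633 and 639 were called. Without GCNA null replicates 1 and 2, 1 row was higher and 0 lower, 0 classes were higher, and 0 partner genes were lower. Here, as when replicate 3 is left out, 1 sample stands for GCNA null, and its spread is taken to be that of the wild type. U1:95Cc passed under all 18 alternatives and U1:95Ca under 17. The U2 and U5 sums, close to 0, changed sign. U2 ranged from -0.10 to 0.0010 when 1 library was left out (above 0 without wild type replicate 3), was 0.024 without GCNA null replicates 1 and 2, and was 0.47 when each class was its highest row, a setting chosen after seeing the data that kept the U1 call. U5 ranged from -0.18 to 0.18 when 1 library was left out (above 0 without wild type replicate 1) and was 0.068 without GCNA null replicates 1 and 2. The cause was not tested. Depth limits U6, U6atac, U7 and the untested scaRNAs.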
